A study of Homo sapiens with 4 samples.

Results

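Expression of 9 tight junction and claudin genes was examined in naïve human ESCs grown in 2-D culture and in 3-D self-assembling scaffolds. The genes were chosen by name and role from the 60564 gene identifiers counted, by a rule that uses no measured value. They are the claudins CLDN3, CLDN4, CLDN6, CLDN7 and CLDN10, occludin (OCLN), the junctional adhesion molecule F11R, the scaffold protein ZO-1 (TJP1) and the adhesion molecule EPCAM, which binds claudin-7. RNA-seq was performed on Elf1, an ESC line derived from a human embryo and therefore 1 genetic background. In the 2-D condition, cells grew attached to coated plates. The paper does not state whether the sequenced 2-D cells were on feeders or on Matrigel. For the 3-D condition, dissociated single cells were enclosed in scaffolds of PEG-8-SH and PEG-8-Acr, polyethylene glycols with 8 arms that end in thiols or acrylates and react with each other, and were cultured for 21 days. The expansion medium held FGF2, CHIR99021, a MEK inhibitor and LIF. The line was maintained on mouse embryonic feeders and moved to Matrigel before cells were enclosed. Each condition had 2 libraries, described as independent biological replicates.

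A tight junction seals the space between neighbouring epithelial cells near their apical side. Claudins form its strands and set which ions and small molecules pass between cells, occludin and the adhesion molecules sit in or beside the strands, and ZO proteins tie them to actin. Undifferentiated human ESCs grow as epithelium-like colonies, and claudin-6 and EPCAM are known surface proteins of such cells.

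Total counts were 33833778 and 30114220 in 2-D replicates 1 and 2, and 21154409 and 18276147 in 3-D replicates 1 and 2, so low genes were measured less precisely in 3-D. Levels are given as CPM (counts scaled to a common library size after TMM normalization), and as CPM per kilobase of exon where genes are compared with each other. Of 22555 genes tested between conditions with edgeR's quasi-likelihood test, 1782 (7.90%) had a Benjamini-Hochberg adjusted p below 0.05 and are named as changed. POU5F1, NANOG, SOX2 and LIN28A, core genes of pluripotent cells, were at 109 CPM or above in all 4 libraries, and 0 of the 8 tested genes of the list of core and naïve markers changed in edgeR's quasi-likelihood test (2 had an unadjusted p below 0.05, and 0 passed with DESeq2). POU5F1 has near-identical copies on alternate contigs of chromosome 6, so its level is uncertain. Among the naïve markers, TFCP2L1 was between 22.1 and 23.8 CPM, while KLF17 reached at most 1.07 CPM and DPPA5 at most 4 counts in a library. In a list of fibroblast and feeder markers, 4 of 7 tested genes (COL1A1, COL3A1, THY1 and POSTN) were higher in 3-D. The summed level of that list was 534 to 542 CPM in 2-D and 553 to 604 CPM in 3-D. Most of it was COL1A2 (301 to 325 CPM) and COL1A1 (118 and 119 CPM in 2-D, 138 and 152 CPM in 3-D), while DCN and LUM were under 1 CPM in every library. In bulk RNA, a change in the number of cells of one type cannot be told apart from a change in RNA per cell.

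The starts of the claudin genes were read from RefSeq promoter windows (build GRCh38.p14), which matched 7 of the 9 genes with 13 windows. F11R and EPCAM had no window. CLDN7, CLDN10, OCLN and TJP1 had more than 1, so the windows are not independent, and those of OCLN overlap. For CLDN7, the window with E-box matches is the one shown. The last 30 bases before a start are shown for the claudins with the highest (CLDN6, CLDN7) and the lowest (CLDN4, CLDN3) levels per length in the group. They lie at chr16:3018184-3018213 (minus strand), chr17:7262479-7262508 (minus strand), chr7:73830966-73830995 (plus strand) and chr7:73770271-73770300 (minus strand), in that order, and each is written 5′ to 3′. Capitals mark matches on either strand to GGGCGG (a GC box), CAGGTG (an E-box of the kind that ZEB and SNAI repressors bind) or GCCNNNGGC (an AP-2 motif).
CLDN6: taagacccccgcctCCGCCCctgtcccgac
CLDN7: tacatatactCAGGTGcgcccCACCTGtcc
CLDN4: ccatataactgctcaacctgtccccgagag
CLDN3: gctaagacgcaccggccccaGCCCAGGGCc
The stretch of CLDN7 holds both orientations of the E-box next to each other, and the stretch of CLDN4 holds none of these letters. Over the 250 bases before the start, this CLDN7 window held 4 E-box matches and 1 GC box match, and the other CLDN7 window (chr17:7263214-7263463) held none of the motifs searched. The CLDN6 window held 2 GC box matches and 1 AP-2 match, the CLDN3 window held 4 and 1, and the CLDN4 window held 1 GC box match. The GC content was 68% for CLDN6, 71.2% for this CLDN7 window, 58.8% for CLDN4 and 71.6% for CLDN3, against a median of 58% over all windows. CAGGTG was found in 4 of the 13 windows of these genes and in 17.5% of 35116 windows in RefSeq. GGGCGG was in 9 of the 13 and in 42.6% of all, and GCCNNNGGC in 2 of the 13 and in 19.8% of all. AACCGGTT, a motif of grainyhead-like factors, was in 0 of the 13 and in 0.117% of all, and GGAATG, a motif of TEAD factors, was in 0 of the 13 and in 11.9% of all.

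All 9 genes passed the filter on low counts. CLDN6 was higher in 3-D grown cells and F11R was lower, while 7 genes did not pass the test. These 2 of 9 stand beside 7.90% of all tested genes, of which 4.54% were higher and 3.36% were lower in 3-D. The median log2 fold change (3-D over 2-D) of the 9 genes was 0.11, and that of all tested genes was -0.000135. The libraries of the conditions did not overlap for 5 of the 9 genes, as for 50.5% of all tested genes. Before adjustment, 4 of the 9 genes (CLDN6, CLDN7, F11R and EPCAM) had p below 0.05, as did 21.3% of all tested genes. The calls depended on the tool and the libraries. CLDN6 and F11R passed with DESeq2, where 8.42% of genes with an adjusted p did, and F11R alone passed with edgeR's likelihood ratio test (5.05% of all) and with scaling by library size only (10.6%). With no filter on low counts (5.89% of all), EPCAM passed as well. Leaving out 2-D replicate 1 (5.22% of all) left F11R with OCLN and TJP1, all lower, and leaving out 2-D replicate 2 (4.27%) left F11R lower and TJP1 higher. Leaving out 3-D replicate 1 (10.7%) left CLDN6 and F11R, and leaving out 3-D replicate 2 (9.74%) added OCLN, lower, and EPCAM, higher.

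**Figure D1:**
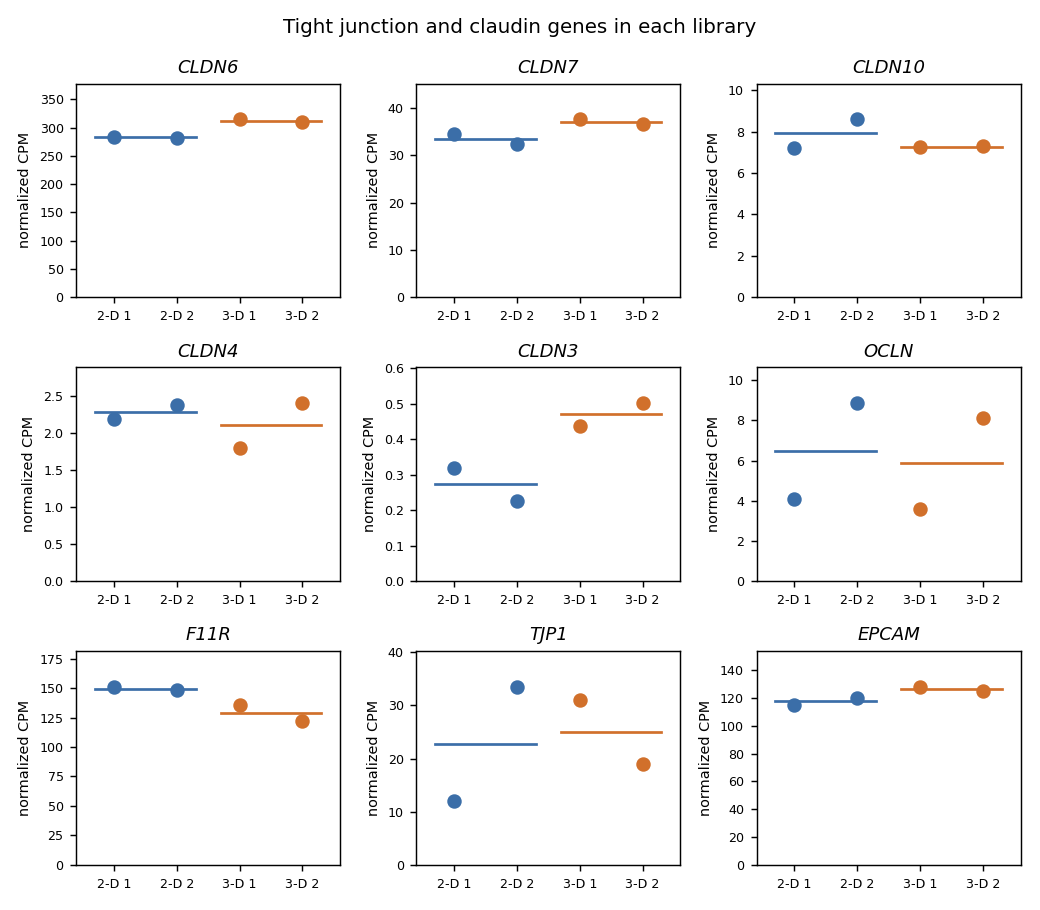
Normalized CPM (vertical axis, from 0, a scale of its own in each panel) of the 9 genes in the 4 libraries, with 2-D in blue, 3-D in orange, points for libraries and bars for the mean of a condition. CLDN6 sat at 282 to 284 in 2-D and 310 to 315 in 3-D, F11R was lower in both 3-D libraries, and OCLN and TJP1 differed more between replicates than between conditions.

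Claudin-6 is a claudin of early embryonic epithelia that is mostly silent in adult tissues. CLDN6 (ENSG00000184697, chr16:3014712-3020071, minus strand) was at 284 and 282 CPM in 2-D replicates 1 and 2 and at 315 and 310 CPM in 3-D replicates 1 and 2, from 5563 to 9782 counts per library. Both 3-D libraries were above both 2-D libraries, and the libraries of each condition were within 1.01-fold of each other. The condition means were 283 ± 1.4 (SD, n = 2) and 312 ± 3.07 CPM (SD, n = 2). The log2 fold change was 0.14 with a standard error of 0.03 and a Benjamini-Hochberg adjusted p of 0.0107 in edgeR's quasi-likelihood test, a 1.1-fold higher level in 3-D. Without 2-D replicate 1 the adjusted p was 0.0941 and without 2-D replicate 2 it was 0.154, with log2 fold changes of 0.15 and 0.14. Scaling by library size alone gave 0.08, with an adjusted p of 0.124.

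Claudin-7 is found along the sides of epithelial cells as well as in the junction. CLDN7 (ENSG00000181885, chr17:7259903-7263983, minus strand) was at 34.4 and 32.3 CPM in 2-D and at 37.6 and 36.6 CPM in 3-D. The 3-D libraries were the upper pair without overlap, at means of 33.3 ± 1.44 and 37.1 ± 0.685 CPM (SD, n = 2 each). With a log2 fold change of 0.15, a standard error of 0.06 and an adjusted p of 0.158 in the quasi-likelihood test, the gene did not pass. Its fold change was close in size to that of CLDN6 and its standard error was larger.

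Claudin-10 exists in forms that make pores for cations or for anions. CLDN10 (ENSG00000134873, chr13:95433604-95579759, plus strand) was at 7.23 and 8.60 CPM in 2-D and at 7.25 and 7.31 CPM in 3-D. Both 3-D libraries fell between the 2-D libraries. Its log2 fold change was -0.12 with a standard error of 0.12 (adjusted p = 0.65, edgeR quasi-likelihood test). DZIP1, on the opposite strand, covers 46.0% of the exon bases of CLDN10 and had 820 to 1572 counts per library against 131 to 265 of CLDN10, so this value relies on reads having been assigned by strand. The counts themselves bear on that. Of 537 genes with exons wholly covered by a gene on the opposite strand, 79.3% had 10 counts or more over the 4 libraries, while of 503 covered by a gene on the same strand 6.96% did.

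CLDN4 and CLDN3 are neighbours on chromosome 7 and encode the receptors of a Clostridium enterotoxin. CLDN4 (ENSG00000189143, chr7:73799542-73832690, plus strand) was at 2.18 and 2.37 CPM in 2-D and at 1.80 and 2.40 CPM in 3-D, with 3-D replicate 1 the lowest and 3-D replicate 2 the highest. Its log2 fold change was -0.12 with a standard error of 0.21 (adjusted p = 0.807, edgeR quasi-likelihood test). CLDN3 (ENSG00000165215, chr7:73768997-73770270, minus strand) had 11 and 7 counts in 2-D and 9 and 9 in 3-D, which are 0.319, 0.227, 0.438 and 0.502 CPM. The 3-D libraries were higher without overlap, and the 1.69-fold difference rested on 7 to 11 counts per library. It had the largest log2 fold change of the group, 0.75, with a standard error of 0.48 and an adjusted p of 0.414 in the same test, so a difference was not detectable at this depth.

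Occludin, a membrane protein with a MARVEL domain, marks the junction and affects its leak to larger solutes. OCLN (ENSG00000197822, chr5:69492292-69558104, plus strand) was at 4.09 and 8.86 CPM in 2-D replicates 1 and 2 and at 3.6 and 8.14 CPM in 3-D replicates 1 and 2. Replicate 2 was the higher library in both conditions, by 2.16-fold and 2.26-fold, and the conditions overlapped. The log2 fold change was -0.15 with a standard error of 0.34 (adjusted p = 0.86, edgeR quasi-likelihood test). Its direction turned with the libraries used. Leaving out 2-D replicate 1 gave -0.61 and leaving out 3-D replicate 2 gave -0.83, which both passed the test with adjusted p of 0.00651 and 0.0308. Leaving out 2-D replicate 2 gave 0.50 and leaving out 3-D replicate 1 gave 0.35, which did not.

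ZO-1, the first of the ZO scaffold proteins, binds claudins, occludin and F11R at the membrane and actin on the inner side. TJP1 (ENSG00000104067, chr15:29699367-29968915, minus strand) was at 12.1 and 33.5 CPM in 2-D replicates 1 and 2 and at 31.1 and 18.9 CPM in 3-D replicates 1 and 2. One library of each condition was high and the other low, so the conditions overlapped, with ratios between replicates of 2.76 and 1.65. A log2 fold change of 0.15 had a standard error of 0.33 (adjusted p = 0.855, edgeR quasi-likelihood test). It was -0.41 without 2-D replicate 1 (adjusted p = 0.000702) and 1.05 without 2-D replicate 2 (adjusted p = 1.85e-08), 2 calls in opposite directions, while leaving out a 3-D library gave -0.26 (replicate 1) or 0.46 (replicate 2). OCLN and TJP1 did not share a high library in 3-D, where replicate 2 was the higher for OCLN and replicate 1 for TJP1.

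Such spread was rare. Among 13896 tested genes with a mean of at least 3 CPM, the median ratio between replicates was 1.04 in 2-D and 1.05 in 3-D, and the 95th percentiles were 1.18 and 1.27. Taking the smaller of the ratios in 2-D and 3-D, 10 genes (0.072%) reached that of OCLN and 23 genes (0.166%) that of TJP1, each gene itself included. MARVELD2 (tricellulin, the occludin relative of junctions where 3 cells meet), the nearest tested gene on the lower side of OCLN, had ratios of 1.45 and 1.18. CLDN6 had 1.01 in both conditions, and F11R had 1.02 and 1.11. The longest transcript of OCLN aligned over 100% of its length, at 99.64% identity, to an alternate contig of chromosome 5 in hg38, and over 79.4% at 99.47% identity to chr5:71069793-71093193. That of TJP1 aligned over 100% at 99.95% identity to an alternate contig of chromosome 15, and that of MARVELD2 over 100% at 99.93% to the same chromosome 5 contig as OCLN. None of the other 7 genes had another alignment over at least 80% of its transcript with at least 98% identity, the limits set for a near-identical copy, and CLDN6 had 1 below them, over 78.2% at 94.92% identity on chromosome 1. How reads matching more than 1 place were counted is not given in the sources used here, the values of OCLN, TJP1 and MARVELD2 are uncertain for that reason, and the part of these copies in the spread was not tested.

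**Figure D2:**
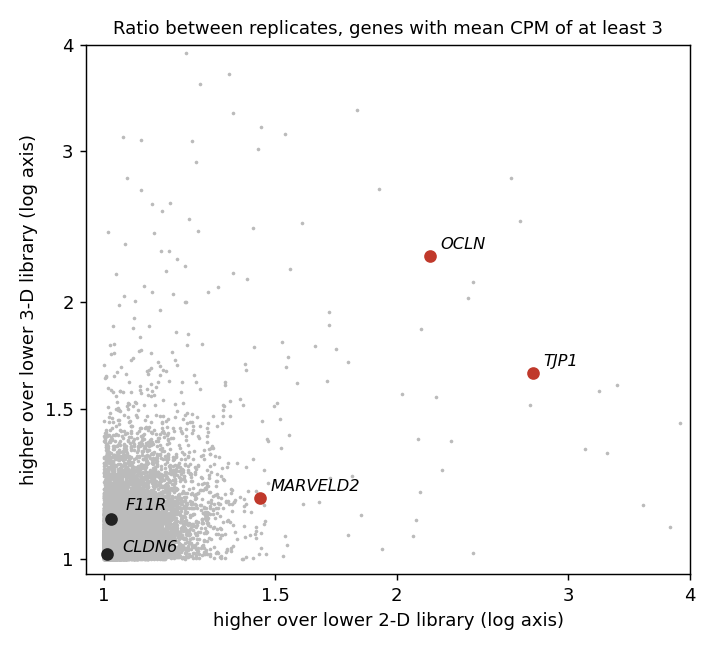
Ratio of the higher to the lower library in 2-D (horizontal) and in 3-D (vertical), on log axes, for tested genes with a mean of at least 3 CPM. Genes with near-identical copies are marked in red and comparison genes in black, 19 genes with a ratio above 4 fall outside the axes, and OCLN and TJP1 lie far from the bulk near 1.

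The leave-one-out values separate the genes by how far 1 library set them. F11R stayed between -0.29 and -0.14 and CLDN6 between 0.13 and 0.15 on the log2 scale, while OCLN ranged from -0.83 to 0.50 and TJP1 from -0.41 to 1.05.

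**Figure D3:**
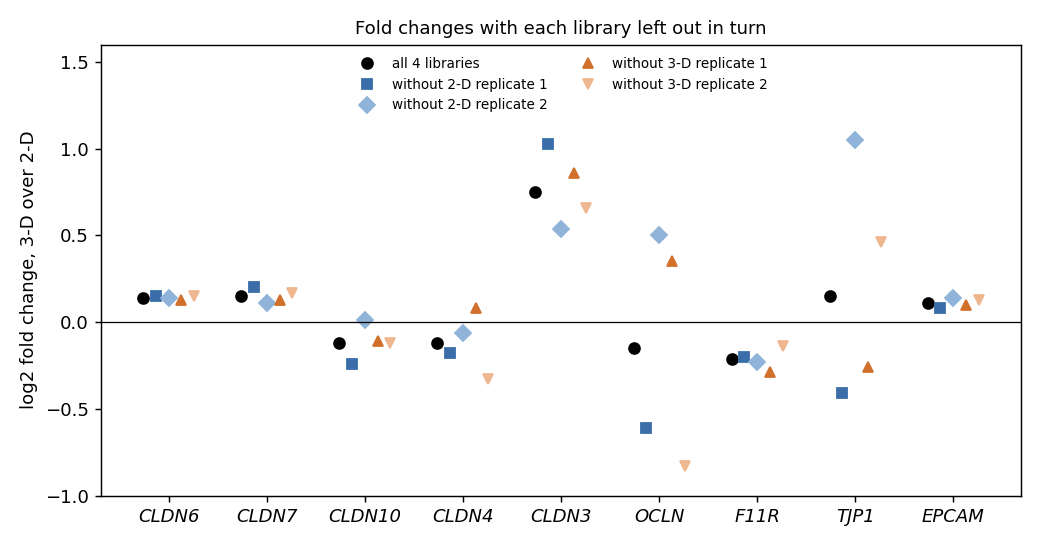
Log2 fold change (3-D over 2-D, vertical axis) of the 9 genes with all 4 libraries (black circles) and with each library left out in turn (other symbols). The symbols of CLDN6, CLDN7, F11R and EPCAM keep to one side of 0, those of CLDN3 stay above it with a wide spread, and those of OCLN and TJP1 lie on both sides.

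F11R encodes JAM-A, an immunoglobulin-type adhesion molecule that helps to place the polarity proteins at new contacts. F11R (ENSG00000158769, chr1:160995211-161021343, minus strand) was at 151 and 148 CPM in 2-D and at 136 and 122 CPM in 3-D, from 2187 to 5199 counts per library. Both 3-D libraries were below both 2-D libraries, at means of 150 ± 1.79 and 129 ± 9.79 CPM (SD, n = 2 each). The log2 fold change was -0.21 with a standard error of 0.04 and a Benjamini-Hochberg adjusted p of 0.00797 (edgeR quasi-likelihood test), so that 3-D stood at 0.862 of the 2-D level. It was lower in 3-D with an adjusted p below 0.05 under each of the 14 alternatives run, with values from -0.29 without 3-D replicate 1 to -0.14 without 3-D replicate 2. A readthrough gene on the same strand (ENSG00000270149) covers 36.6% of the exon bases of F11R and had 2 to 4 counts per library. Reads in the shared bases may have been given to neither gene, so the level of F11R could be understated in every library.

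EPCAM, an epithelial adhesion molecule, holds claudin-7 in a complex at the lateral membrane and is cut by membrane proteases. EPCAM (ENSG00000119888, chr2:47345158-47387601, plus strand) was at 115 and 120 CPM in 2-D and at 128 and 125 CPM in 3-D. The 3-D libraries lay above the 2-D libraries without overlap, at means of 117 ± 3.43 and 127 ± 2.18 CPM (SD, n = 2 each). Its log2 fold change of 0.11, with a standard error of 0.03, narrowly missed the threshold with an adjusted p of 0.0512 in edgeR's quasi-likelihood test. It passed under 5 of 14 alternatives. Library size alone gave a log2 fold change of 0.05 and an adjusted p of 0.421. EPCAM, CLDN7 and CLDN6 thus had log2 fold changes between 0.11 and 0.15, and CLDN6 alone of these passed the test in the fit of all 4 libraries.

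Per kilobase of exon, the mean level over the 4 libraries fell from CLDN6 (171 CPM per kb) to EPCAM (50.2), F11R (27.5) and CLDN7 (14.1). CLDN10 (2.24 CPM per kb), TJP1 (2.1), OCLN (0.548), CLDN4 (0.465) and CLDN3 (0.292) followed. The ranges over libraries of neighbours in this order overlapped for CLDN10 and TJP1, OCLN and CLDN4, and CLDN4 and CLDN3, so these were not separated beyond their spread. With the length of the longest transcript in place of all exons, TJP1 came before CLDN10, at 3.01 against 2.86 CPM per kb, and the order was otherwise the same. The 4 genes at the top held their places in every library, and CLDN6 was at 162 CPM per kb or above throughout while CLDN3 was at 0.394 or below.

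Set within its family, CLDN6 held most of the summed claudin level per length. Of 24 claudin genes, 14 stayed under 1 CPM per kb, among them 3 with 0 counts in all libraries. The other 10 exceeded it in at least 1 library. CLDN6 made up 82.0% and 82.4% of the summed claudin level per kilobase in 2-D and 83.0% in each 3-D library. CLDN7 made up 6.92% and 6.59% in 2-D and 6.92% and 6.83% in 3-D. CLDN12, a claudin without the usual PDZ-binding end, was the third, with 3.51 to 3.78%. CLDN10, which came after CLDN20 by mean level, held 0.983 to 1.29%. The shares of CLDN6, CLDN7, CLDN12 and CLDN10 were thus nearly equal in both conditions. Genes on the same strand cover exon bases of CLDN7 (ENSG00000262302, 10.8%) and of CLDN12 (PTTG1IP2, 7.92%, among others). Reads there may have been given to neither gene, so these levels could be understated.

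**Figure D4:**
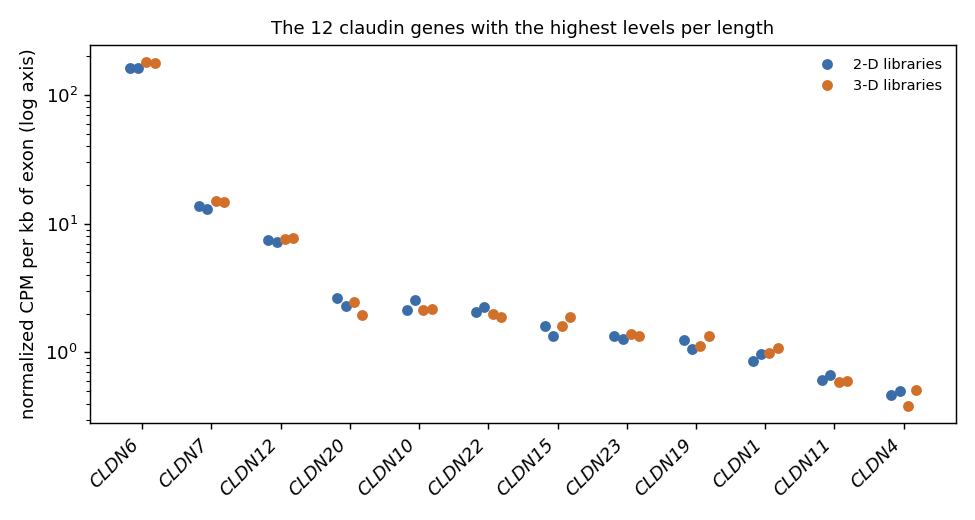
Normalized CPM per kilobase of exon (vertical log axis) of the 12 claudin genes with the highest levels, with 2-D libraries in blue and 3-D libraries in orange. CLDN6 stands more than 10 times above CLDN7, and CLDN4 is the last of the 12.

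Apart from CLDN6, 0 of the 13 tested claudin genes changed in edgeR's quasi-likelihood test. One of them, CLDN7, had an unadjusted p below 0.05, and 0 passed with edgeR's likelihood ratio test or with DESeq2, which gave an adjusted p for 2 of the 13. With 7.90% of all tested genes changed and 21.3% below 0.05 before adjustment, counts this small do not set the claudins apart. CLDN12 was at 50.5 and 48.1 CPM in 2-D and 51.3 and 51.5 CPM in 3-D, with a log2 fold change of 0.06 (adjusted p = 0.513). CLDN15, CLDN19 and CLDN22 had log2 fold changes of 0.23, 0.08 and -0.15 with adjusted p of 0.445, 0.823 and 0.614. WWC2, on the opposite strand, covers 100% of the exon bases of CLDN22, so the value of CLDN22 relies on reads having been assigned by strand. CLDN9, whose gene lies 207 bases from CLDN6, had 21 counts in each 2-D library and 5 and 8 in the 3-D libraries. Its log2 fold change was -0.92 with a standard error of 0.44 (adjusted p = 0.259), opposite in sign to CLDN6.

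Neighbours were taken as the nearest tested gene on each side that does not overlap the gene itself. Overlapping genes, such as TNFRSF12A (CLDN6), ELP5 (CLDN7) and DZIP1 (CLDN10), are thus not counted here. CLDN3 and CLDN4 are each other's nearest tested gene on one side. Of the 16 other nearest tested genes, 0 had an adjusted p below 0.05 in edgeR's quasi-likelihood test (7.90% of all tested genes), 1 had an unadjusted p below 0.05 (21.3% of all), and 0 passed with the likelihood ratio test or with DESeq2, which gave 4 of them an adjusted p. Next to F11R, TSTD1 had a log2 fold change of -0.25 with a standard error of 0.12 (adjusted p = 0.252), and ITLN2 had 0.06. Next to EPCAM, the divergent transcript EPCAM-DT, 84 bases away, had -0.71 with a standard error of 0.43 (adjusted p = 0.389).

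Further genes were taken from 6 lists by role, with 92 genes, of which 78 were tested. Of these, 4 lists hold 64 genes of the junction and its polarity machinery, and 2 lists hold 28 genes related to EPCAM or known as regulators of epithelial genes. In all 6 lists 9 genes rose and 3 fell in 3-D, which is 15.4% of those tested beside 7.90% of all tested genes. The lists were chosen with earlier results of these data known, and the shares were not matched for level. Whether the shares differ was therefore not tested. The median log2 fold change of the 78 tested genes was 0.06. The junction lists held 9 of the changed genes among 52 tested (17.3%), and the other 2 lists held 3 among 26 (11.5%). For all 6 lists the number was 4 with DESeq2, where 8.42% of all genes with an adjusted p passed. DESeq2 gave ZEB2, 1 of the changed genes, no adjusted p. With edgeR's likelihood ratio test the number was 7, beside 5.05% of all tested genes.

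**Figure D5:**
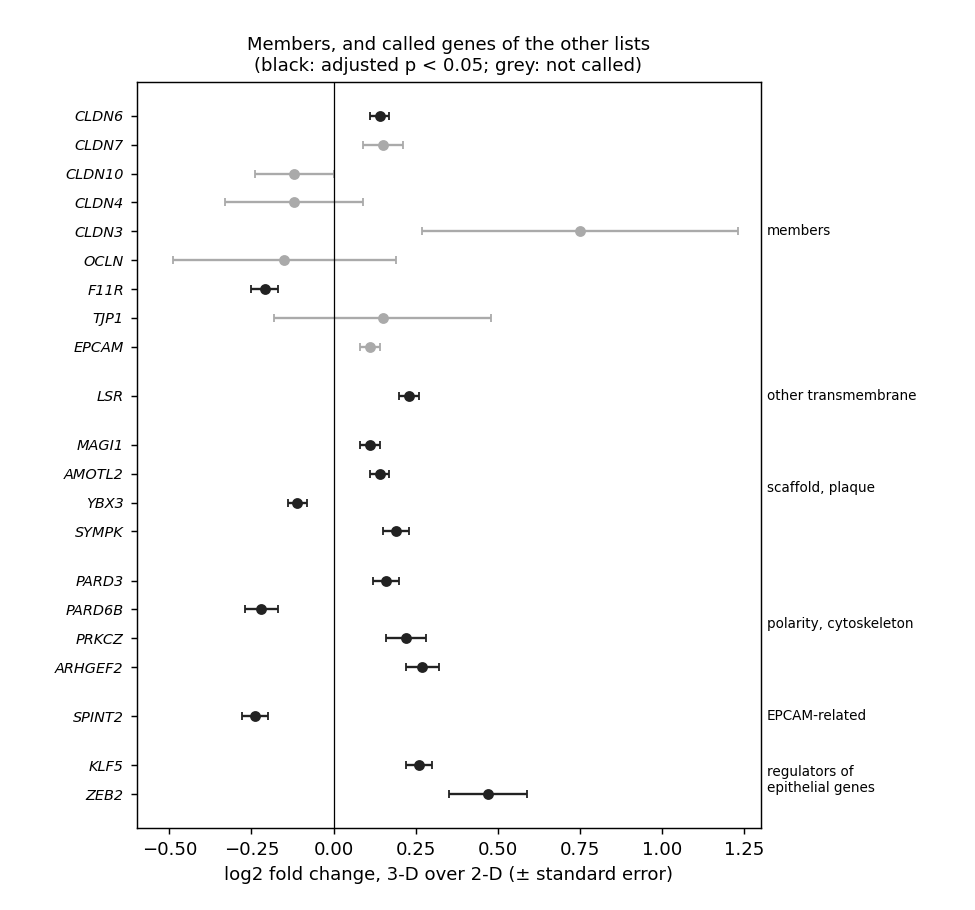
Log2 fold change (3-D over 2-D, horizontal axis, bars of 1 standard error) of the 9 genes and of the 12 genes of the other lists with an adjusted p below 0.05, with black for changed and grey for not passing the test. The change of ZEB2 was the largest of the black points at 0.47, and the widest bars belong to CLDN3, OCLN and TJP1.

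Beside 7.90% of all tested genes that changed, 1 of 10 tested transmembrane proteins outside the group rose. It was LSR (angulin-1), which gathers tricellulin at the corners of cells, at 86.8 and 86.9 CPM in 2-D and 103 and 100 CPM in 3-D. Both 3-D libraries were higher, with a log2 fold change of 0.23 and a standard error of 0.03 (adjusted p = 0.00123, edgeR quasi-likelihood test). The other adhesion molecules of the same kind as F11R did not pass. CXADR had a log2 fold change of -0.09 (adjusted p = 0.107) and JAM3 -0.02 (adjusted p = 0.864). MARVELD3 and MARVELD2, relatives of OCLN, had 0.02 and 0.04. CXADR was lower with an adjusted p of 0.0111 with library size only, 0.0381 with no filter on low counts and 0.00131 without 3-D replicate 2. The difference between F11R and CXADR was not tested.

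Of 16 scaffold and plaque proteins, 3 rose and 1 fell, beside 7.90% of all tested genes that changed. A positive log2 fold change was found for 13 of the 16, beside 50% of all tested genes. Some of these values were small, such as 0.01 for MPDZ and for PATJ. Scaling by library size only moved the median of all tested genes to -0.0646. MAGI1, a PDZ scaffold, had 0.11 with a standard error of 0.03 (adjusted p = 0.0315), and AMOTL2, an angiomotin that binds YAP, had 0.14 with 0.03 (adjusted p = 0.0309). SYMPK (symplekin), which also works in mRNA 3′ end formation, had 0.19 with a standard error of 0.04 (adjusted p = 0.0201). The gene that fell was YBX3, a Y-box protein that ZO-1 binds, at 307 and 310 CPM in 2-D and 283 and 287 CPM in 3-D (log2 fold change -0.11, adjusted p = 0.0344).

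Of 17 polarity proteins and cytoskeletal regulators, 3 rose and 1 fell, beside 7.90% of all tested genes that changed. PARD3, which binds the tail of F11R, was at 75.2 and 78.3 CPM in 2-D and 85.9 and 85.1 CPM in 3-D (log2 fold change 0.16, standard error 0.04, adjusted p = 0.0184). Its partners differed in sign. The kinase gene PRKCZ rose by a log2 fold change of 0.22 (adjusted p = 0.0341), and the adaptor gene PARD6B fell, at 56.6 and 58.2 CPM in 2-D and 47.8 and 51.1 CPM in 3-D (log2 fold change -0.22, standard error 0.05, adjusted p = 0.0145). ARHGEF2, an exchange factor for small GTPases held at the junction by cingulin, rose by a log2 fold change of 0.27 with a standard error of 0.05 (adjusted p = 0.00336). RAB13, a small GTPase that brings proteins to the junction, had 0.21 (adjusted p = 0.242), and a near-identical copy on chromosome 12 makes its value uncertain.

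Among 11 genes around EPCAM, a paralog and the proteases that cut it with their inhibitors, 1 fell. Of all tested genes, 7.90% changed. SPINT2, an inhibitor of matriptase, was at 103 and 98.3 CPM in 2-D and 86.7 and 84.5 CPM in 3-D. Both 3-D libraries were lower, with a log2 fold change of -0.24 and a standard error of 0.04 (adjusted p = 0.00172, edgeR quasi-likelihood test). SPINT1, the related inhibitor, and the sheddases ADAM10 and ADAM17 had log2 fold changes of 0.02, -0.08 and 0.01 and did not pass.

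Of 15 tested transcription and splicing regulators of epithelial genes, 2 rose, beside 7.90% of all tested genes that changed. KLF5 had 46.9 and 48.0 CPM in 2-D and 56.2 and 57.2 CPM in 3-D (log2 fold change 0.26, standard error 0.04, adjusted p = 0.00336). ZEB2, a repressor of epithelial genes, was at 5.55 and 6.13 CPM in 2-D and 7.88 and 8.26 CPM in 3-D. The 3-D libraries of ZEB2 were the higher pair, with a log2 fold change of 0.47 and a standard error of 0.12 (adjusted p = 0.0289, edgeR quasi-likelihood test). TFAP2C and ESRP1 had log2 fold changes of 0.04 and 0.05 and did not pass.

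Of the 12 changed genes of the 6 lists, LSR, ARHGEF2, SPINT2 and KLF5 passed under all 14 alternatives run. MAGI1, AMOTL2 and PRKCZ passed under 6, 5 and 6 of them, and the other 5 genes under 9 to 12. Summed levels were 4.76 to 5.91 CPM in 2-D and 6.36 to 6.52 CPM in 3-D for trophectoderm, and 14.9 to 15.5 and 17.5 to 18.6 CPM for amnion. They were 8.15 to 8.30 and 9.78 to 10 CPM for endoderm, and 15.8 to 18.4 and 19.7 to 20.3 CPM for surface epithelium, where nearly all of the sum was SFN and KRT14, KRT13 and KRT4 were at 0 in every library. In these 4 lists 12 genes were tested and 0 changed in edgeR's quasi-likelihood test, beside 7.90% of all tested genes. An unadjusted p below 0.05 was seen for 4 of the 12, beside 21.3%, and 0 passed with DESeq2, which gave 1 an adjusted p. With the likelihood ratio test 2 passed, beside 5.05%, namely GATA6 and HAND1, 2-fold and 1.97-fold higher in 3-D in the quasi-likelihood fit (adjusted p = 0.0516 and 0.0695) at levels of 2.34 CPM or below. Each of the 4 summed levels was higher in both 3-D libraries than in both 2-D libraries. The same held for the endothelium, mesoderm and neural sums given next. Libraries of the conditions did not overlap, in either direction, for 50.5% of all tested genes, and 50% had a positive log2 fold change. These are shares of single genes. A share for sums that are higher in 3-D was not computed. Most of the amnion sum was IGFBP3 (10.5 to 13.7 CPM), and GATA4 (4.59 to 6.08 CPM) was the largest part of the endoderm sum. ISL1 of the amnion list and APOA1 of the endoderm list, both under 1 CPM, were lower in both 3-D libraries. Summed levels of endothelium, mesoderm and neural markers were 168 to 169, 65.6 to 66 and 582 to 588 CPM in 2-D and 174 to 178, 69.8 to 70.2 and 604 to 607 CPM in 3-D. NES made up nearly all of the neural sum, at 577 to 602 CPM, and KDR and TEK of the endothelial sum, while SOX1, NEUROG2, PECAM1 and CDH5 were under 1 CPM in every library. Of their 9 tested genes 0 changed in the quasi-likelihood test and 2 had an unadjusted p below 0.05. The part of such cells, or of the fibroblast markers above, in the values of CLDN6 and F11R was not tested.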

How the data were processed

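RNA was measured in 4 libraries. The authors depleted ribosomal RNA, sequenced paired ends, trimmed with Trim Galore 0.6.3, mapped to hg38 with HISAT2 2.1.0 and counted GENCODE release 30 genes with featureCounts 1.6.4. The deposited counts are whole reads per gene and library, unnormalized, with no pooling of replicates. In a further deposited table, the normalized signal is those counts over 1 DESeq2 size factor per library (DESeq2 2.11.40.6, per the labels). Columns with the authors' fold changes, standard errors, Wald statistics and p-values were not used.

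Counts were tested with edgeR 4.0.16 in R 4.3.3 (TMM, its filter on low counts, quasi-likelihood in legacy mode, condition only, Benjamini-Hochberg over all tested genes). Standard errors are the log2 fold change over the square root of F. Positions and exon lengths are from GENCODE release 44, which holds 60295 of the identifiers, and the 269 others held 0.122% of counts. Replicates differed beyond sampling noise (chi-square per degree of freedom 2.45 for 2-D, 4.39 for 3-D) and were kept apart. Copies were sought with minimap2 2.31-r1302. Other tools were Python 3.11.15, scipy 1.17.1, numpy 2.4.6, matplotlib 3.10.9 and pandas 2.3.3. The fits were tested on simulated data.

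The rule for the 9 genes uses no values, but genes and lists were chosen with earlier results of these data known. Named are the 9 genes, changed genes of the 6 lists and the most abundant genes of a list up to 4. Also named are genes of those lists with copies, nearest tested neighbours without overlap, cell type markers and some list genes for comparison. Some genes are not reported here. Alternatives were DESeq2 1.42.0, edgeR's likelihood ratio test, DESeq2 size factors, library size only, a filter of 1 count in all or of 10 in each library, a block for the replicate number, spline offsets (5 degrees of freedom) for GC content and length, block and offsets combined, limma-trend (limma 3.58.1) on log2 of the deposited normalized signal plus 1, each library left out, and the longest transcript as length.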

Additional observations from a re-analysis of the deposited data

How the results depend on the processing

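F11R was lower in 3-D under all 14 alternatives (adjusted p from 1.79e-08 to 0.0184), and CLDN6 passed under 10 of 14. Genes higher in 3-D among the 9 numbered 1, but 0 with edgeR's likelihood ratio test or library size only, and 2 with no filter on low counts, with the replicate block, with offsets for length and GC content, or with block and offsets together. Leaving out 1 library gave 0 (without 2-D replicate 1) to 2 higher and 1 to 3 lower genes. The 12 changed genes of the other lists became 7 with the likelihood ratio test, 4 with DESeq2, and 5 to 15 with 1 library left out. All changed genes, 1782, became 1139 and 794 with these tools and 974 to 2643 with 1 library left out (974 without 2-D replicate 2, 1186 without 2-D replicate 1). Where 1 library was left out, the lone library of its condition was assumed to vary like the other condition.

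Directions turned for genes that did not pass. With library size only, log2 fold changes were -0.0031 (CLDN12), -0.05 (MARVELD3), -0.05 (SPINT1), -0.06 (ADAM17), -0.01 (ESRP1) and -0.02 (TFAP2C), and the median of all tested genes was -0.0646. Offsets, with or without the block, gave -0.01 for MARVELD3 and -0.03 for SPINT1, and at least 10 counts in every library gave -0.0021 for ADAM17. With 1 library left out, values ranged over both signs, from -0.33 to 0.08 (CLDN4), -0.24 to 0.01 (CLDN10), -0.83 to 0.50 (OCLN), -0.41 to 1.05 (TJP1), -0.05 to 0.22 (CLDN19), -0.08 to 0.04 (JAM3), -0.03 to 0.06 (MARVELD3), -0.02 to 0.05 (SPINT1) and -0.03 to 0.04 (ADAM17). The cause was not tested. Of 461 values of 33 named genes, 366 kept direction and side of the threshold, 48 lost the call, 13 gained it, 26 turned, and 8 from DESeq2 had no adjusted p. CLDN3 had no value with at least 10 counts in every library, which removed it.

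Same-numbered replicates correlated at -0.0512 in their deviations from the condition means. The labels do not say whether libraries of the same number were prepared together, and 2 pairs cannot settle it for single genes. With the replicate block 2167 genes changed, and EPCAM was the 1 gene among the 9 that was gained. Depth limits CLDN3 and CLDN9, and 2 libraries per condition limit every p-value to the spread between these samples.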
